A study of Homo sapiens with 3 samples.

Results

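The genes of Wnt signalling, from the receptors at the cell surface to the genes the pathway switches on in the nucleus, were followed in Caco-2 cells depleted of the transcript OCC-1 (gene symbol C12orf75). The members were 41 named pathway components and targets, and every probe set was taken whose only gene symbol in the platform annotation was that of a member. This gave 125 of the 49395 probe sets on the arrays and 38 of the 41 genes. The levels of TCF7, EPHB2 and PORCN were not analysed here. Caco-2 is an established cell line from a human colorectal carcinoma. The control was a line that expressed a non-target short hairpin RNA, shCTRL (1 array), and the OCC-1 knockdown group consisted of a line with shOCC-1-1, here line 1, and a line with shOCC-1-2, here line 2 (1 array each). All 3 had been infected with lentivirus, kept in 20% fetal bovine serum, selected for 5 days with puromycin at 1 µg/ml and then grown without the drug for 24 h. Because both knockdown lines were set against the same control array, a deviation of that array enters both differences.

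Wnt ligands are lipid-modified by PORCN and carried out of the cell by WLS, and they bind Frizzled receptors (the FZD genes) together with LRP5 or LRP6. Dishevelled proteins (DVL1, DVL2 and DVL3) pass the signal on to the complex of APC, AXIN1, AXIN2, GSK3B and CSNK1A1, which otherwise marks beta-catenin for destruction. Beta-catenin that is spared enters the nucleus and works with the TCF and LEF factors, and among the genes switched on are inhibitors of the pathway itself. In the gut this signal maintains the stem cells of the crypts. Caco-2 cells are known to make a shortened APC protein, so that their beta-catenin is held active without a ligand.

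The hairpin target itself was lower in both lines. OCC-1 read 1219 on the control array against 517.8 for line 1 and 396.8 for line 2 (intensities on a linear scale), a log2 difference of -1.43 ± 0.27 (SD, n = 2 knockdown lines). Median intensities were 182.5 to 185.5 on the 3 arrays, and precision is limited by there being only 3 arrays. Of 9 measured markers of intestinal epithelium 8 lay above the intensity filter described in the next paragraph, and LGALS4 did not. In limma, a linear model fitted over all genes, EPCAM rose (3930 in the control, 5602 and 5911 in the lines, adjusted p = 0.00900), as did CDH1 (3799, 5033 and 4891, adjusted p = 0.0208), and FABP1 fell (3729, 3027 and 2680, adjusted p = 0.0401). Of 16 measured markers of fibroblasts, leukocytes and endothelium 6 lay above the filter and 0 passed limma, and the leukocyte marker PTPRC read 75.5 to 80.1. In RNA from whole cultures, fewer cells of a type and less RNA per cell cannot be told apart. Among control probe sets on the arrays, the 23 background controls differed from the control array by log2 -0.37 to 0.06 in line 1 and -0.23 to 0.04 in line 2, and the ratio of the 3′ to the 5′ ACTB control was 6.15 in the control against 7.13 for line 1 and 7.38 for line 2. The same ratio for GAPDH was 1.05 in line 1 and 1.08 in line 2, both below that of the control. The part of these differences in the results below was not tested.

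Most of the pathway differed little from control, and 4 genes rose: the nuclear factor TCF7L2 and the receptors FZD6, LGR4 and FZD5. Each gene was represented by its brightest probe set, and 35 of the 38 genes had a mean at or above the median of all probe sets (log2 7.52, an intensity of 183.7), the filter used throughout. FZD1, FZD3 and PROX1 were below it. The size rule asked that both lines differ from control by 1.5-fold or more in a shared direction. It was met upward by 2 of 35 members, TCF7L2 and FZD6, where 1.36% of all 11329 genes met it, and downward by 0 of 35, against 0.159% of all genes. With the 2 knockdown lines as 1 group in limma, 4 of 35 rose at an adjusted p of 0.05 (11.4%, against 9.63% of all genes) and 0 fell (against 3.06% of all genes), while 9 were higher (25.7%) and 3 lower (8.57%) at an unadjusted p under 0.05, where 17.9% and 12.9% of all genes were. The share that rose in limma was close to that among all genes. Quantile normalization moved the balance of the 1091 genes that rose and 347 that fell among all genes to 1143 and 789, and of the members to 3 and 2. Over the 35 members the log2 differences had medians of 0.02 (line 1) and -0.03 (line 2), beside -0.03 and -0.02 over all genes, and 15 members were above control in both lines, 15 below it in both and 5 on different sides. The test assumes that the lone control varies like the knockdown arrays, and its p-values rest on the spread between 2 arrays of different hairpins, with no repeat culture named in the labels.

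**Figure D1:**
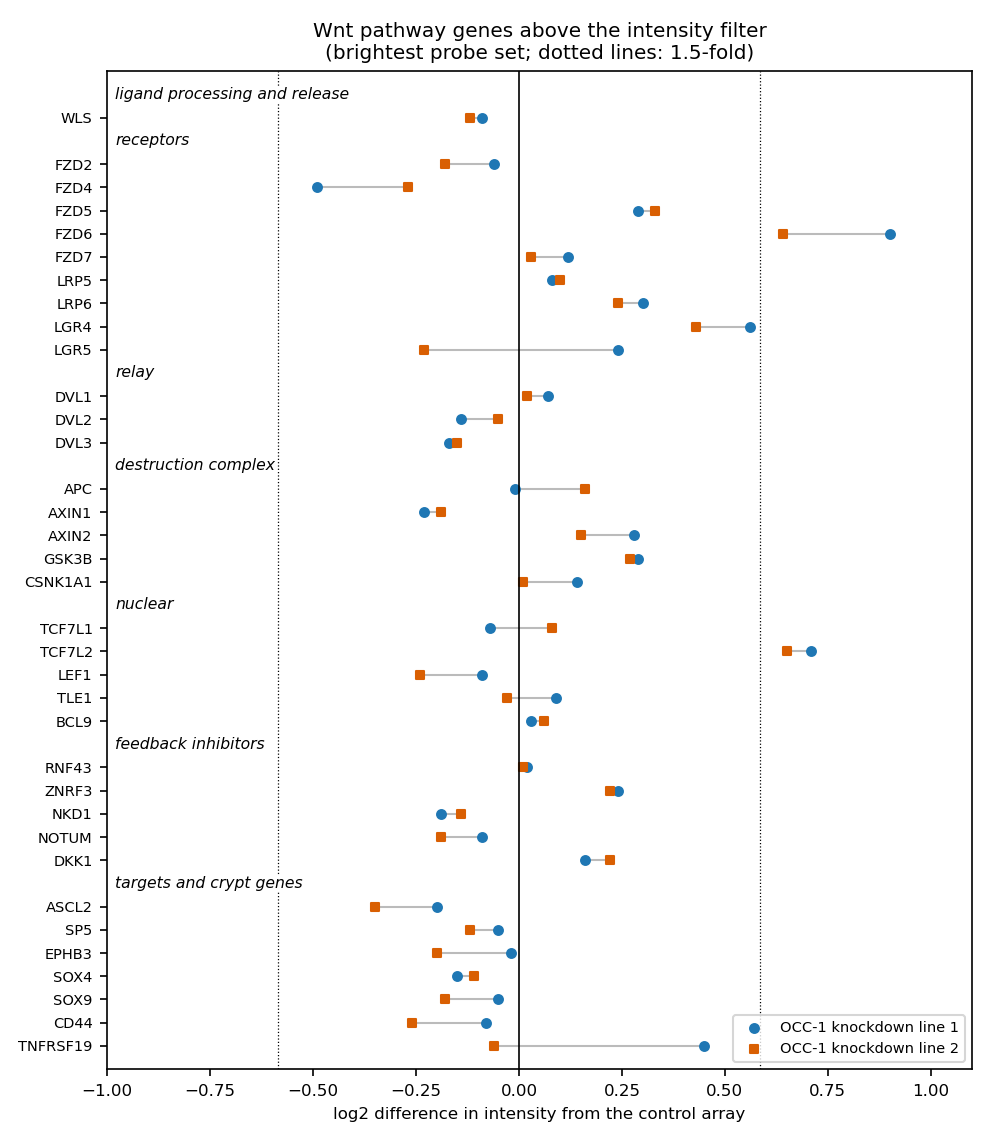
Log2 difference in intensity from the control array (horizontal axis) for the 35 members above the filter, by role, with a circle for line 1 and a square for line 2 (1 array each) and dotted lines at 1.5-fold. FZD6 and TCF7L2 lie beyond the upper dotted line in both lines, and no member lies beyond the lower.

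On the side of the ligands, WLS, the carrier that brings Wnt proteins to the surface, read 265.5 in the control against 249.9 for line 1 and 243.5 for line 2. Both knockdown arrays were slightly below the control, by log2 -0.09 and -0.12, and limma did not call the gene (adjusted p = 0.375). Its 3 other probe sets were below the filter.

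Of the receptors above the filter 3 of 9 rose, where 9.63% of all genes did, with medians of 0.24 in line 1 and 0.10 in line 2. FZD6, a Frizzled receptor often tied to the branches of Wnt signalling that do not use beta-catenin, read 242.4 in the control against 453.1 for line 1 and 377.4 for line 2. Both knockdown arrays were above the control, line 1 more so, by log2 0.90 and 0.64 (mean 0.77 ± 0.11 SE, limma adjusted p = 0.0101). Its other probe set was below the filter and lay higher by 0.18 and 0.16. LGR4, a receptor for R-spondins that strengthens Wnt signals, had 485.9 in the control against 717.0 for line 1 and 656.1 for line 2. That is a rise of 0.56 and 0.43 (0.50 ± 0.08 SE, limma adjusted p = 0.0140), and a dimmer LGR4 probe set below the filter lay at -0.08 and -0.10. FZD5, a main Frizzled receptor of intestinal epithelium, had 1610 in the control against 1963 for line 1 and 2017 for line 2, so that the knockdown arrays were alike and above the control (0.31 ± 0.07 SE, limma adjusted p = 0.0419). With quantile normalization of the arrays FZD5 was no longer called (0.26, adjusted p = 0.0515). With the mean of all probe sets per gene FZD6 alone of the 3 receptors was called.

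The coreceptors LRP6 and LRP5 were not called on the deposited scale with the intensity filter. LRP6 had 985.7 in the control against 1216 for line 1 and 1165 for line 2, an increase of 0.30 and 0.24 that missed the threshold (limma adjusted p = 0.0611). LRP6 was called higher with no intensity filter (0.27, adjusted p = 0.0345) and under cyclic loess (0.28, adjusted p = 0.0386). LRP5 lay at 0.08 and 0.10. FZD4, which also serves as the receptor for norrin in blood vessels of the eye, was the receptor furthest below control. It read 2064 in the control against 1471 for line 1 and 1712 for line 2, or -0.49 and -0.27, and both knockdown arrays lay below the control (limma adjusted p = 0.0563). FZD4 was called lower with no intensity filter (-0.38, adjusted p = 0.0114), under quantile normalization (-0.43, adjusted p = 0.0279) and under cyclic loess (-0.39, adjusted p = 0.0352). FZD7 (0.12 and 0.03) and FZD2 (-0.06 and -0.18) stayed near control. FZD1, below the filter, read 133.6 in the control and lay at 0.19 and 0.11. FZD3, also below it, read 148.8 in the control and lay at 0.17 and 0.11.

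Tested over genes on the deposited scale with the intensity filter, 0 of the 8 members of the relay and the destruction complex were called. Among all genes 9.63% rose and 3.06% fell. In limma, 2 of the 5 genes of the complex were higher and 1 was lower at an unadjusted p under 0.05, where 17.9% and 12.9% of all genes were. DVL1 lay at 0.07 and 0.02, DVL2 at -0.14 and -0.05, and DVL3 at -0.17 and -0.15. GSK3B, the kinase that tags beta-catenin, had 704.9 in the control against 859.2 for line 1 and 851.1 for line 2 (0.28 ± 0.07 SE, limma adjusted p = 0.0528). GSK3B was called higher with no intensity filter (0.28, adjusted p = 0.0285) and under cyclic loess (0.30, adjusted p = 0.0302). AXIN1, a scaffold of the complex, had 274.2, 233.2 and 239.9, with both knockdown arrays below the control by -0.23 and -0.19 (adjusted p = 0.109). AXIN2, the other scaffold and itself a standard Wnt target, had 436.9, 529.0 and 484.1, or 0.28 and 0.15 (adjusted p = 0.145). APC was at 210.7, 208.9 and 236.0, so that line 1 was level with the control and line 2 above it. CSNK1A1, the kinase that primes beta-catenin for GSK3B, had 1811 in the control against 1996 for line 1 and 1825 for line 2 (0.14 and 0.01).

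Among the nuclear members TCF7L2 stood apart. It encodes the main TCF factor of intestinal epithelium, through which beta-catenin acts on crypt genes. The brightest probe set read 946.2 in the control against 1551 for line 1 and 1482 for line 2. Both knockdown arrays were well above the control and close to each other, at 1.64-fold and 1.57-fold (log2 0.68 ± 0.08 SE, limma adjusted p = 0.00535). The related factors were not called. LEF1 had 257.8, 242.4 and 218.2 (-0.09 and -0.24), and TCF7L1, which often represses, had 532.3, 506.9 and 563.8 (-0.07 and 0.08). The corepressor TLE1 (0.09 and -0.03) and the beta-catenin partner BCL9 (0.03 and 0.06) were near control.

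To show what lies upstream of these genes, windows from 250 bases before to 50 after annotated starts were read from RefSeq (GRCh38.p14), which held 38 windows of 28 members, 2 each of TCF7, EPHB2 and PORCN among them. They were searched on both strands for CTTTGAT, a core of sites that TCF and LEF factors bind, for the looser CTTTGNN, which includes it, and for CACGTG, the E-box that MYC binds. CTTTGAT was found in 1 of the 38 windows (2.63%, against 2.62% of 35116 windows of all genes), CTTTGNN in 12 (31.6%, against 47.2%) and CACGTG in 2 (5.26%, against 7.26%). Windows are shown for 3 of the genes that rose, as the sequence at their starts, and for SP5, which was added after the search because its window is the only one of the 38 with CTTTGAT. FZD6, which also rose, has no window among the 38. Letters of a match other than N are in capitals, and each window is given on the strand of its gene. TCF7L2 has 3 windows, of which the most upstream (chr10:112949997-112950296, plus strand) holds no match and an internal start (chr10:113126383-113126682, plus strand) holds 3 of CTTTGNN. The third (chr10:113129021-113129320) holds 1 and is not shown. The windows of LGR4 (chr11:27472741-27473040, minus strand) and FZD5 (chr2:207769857-207770156, minus strand) hold none of the 3 motifs. That of SP5 (chr2:170715087-170715386, plus strand) holds 5 of CTTTGNN, of which 1 is CTTTGAT.
TCF7L2 upstream start: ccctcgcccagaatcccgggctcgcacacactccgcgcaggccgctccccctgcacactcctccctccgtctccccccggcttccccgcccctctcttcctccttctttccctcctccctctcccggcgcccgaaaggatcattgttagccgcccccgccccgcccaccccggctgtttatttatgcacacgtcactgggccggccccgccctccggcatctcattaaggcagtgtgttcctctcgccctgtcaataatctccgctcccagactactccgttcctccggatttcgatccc
TCF7L2 internal start: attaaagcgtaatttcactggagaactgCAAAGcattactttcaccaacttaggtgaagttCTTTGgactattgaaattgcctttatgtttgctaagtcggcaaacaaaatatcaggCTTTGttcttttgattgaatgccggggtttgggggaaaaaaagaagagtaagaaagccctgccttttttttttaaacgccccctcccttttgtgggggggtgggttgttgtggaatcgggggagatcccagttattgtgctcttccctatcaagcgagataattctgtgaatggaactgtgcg
LGR4: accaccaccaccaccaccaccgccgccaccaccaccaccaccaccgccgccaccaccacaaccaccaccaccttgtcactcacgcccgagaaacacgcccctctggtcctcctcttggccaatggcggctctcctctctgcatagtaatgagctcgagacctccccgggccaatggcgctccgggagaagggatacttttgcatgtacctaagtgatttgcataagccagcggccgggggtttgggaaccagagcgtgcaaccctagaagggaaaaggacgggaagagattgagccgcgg
FZD5: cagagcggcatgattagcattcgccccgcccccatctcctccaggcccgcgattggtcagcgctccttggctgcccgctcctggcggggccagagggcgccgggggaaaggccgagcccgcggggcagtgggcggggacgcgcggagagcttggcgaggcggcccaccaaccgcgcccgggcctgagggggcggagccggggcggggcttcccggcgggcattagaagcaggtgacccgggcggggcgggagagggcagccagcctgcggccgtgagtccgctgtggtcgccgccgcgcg
SP5: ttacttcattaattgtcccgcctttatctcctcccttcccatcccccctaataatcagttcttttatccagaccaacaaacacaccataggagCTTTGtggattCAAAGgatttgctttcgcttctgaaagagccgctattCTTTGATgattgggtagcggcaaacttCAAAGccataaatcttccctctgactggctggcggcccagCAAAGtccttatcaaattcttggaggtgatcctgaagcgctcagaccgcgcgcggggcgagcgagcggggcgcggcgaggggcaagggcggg

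The inhibitors that the pathway induces against itself gave 0 of 5 called, where 9.63% of all genes rose and 3.06% fell. In limma 2 of 5 were higher (40.0%) and 0 lower at an unadjusted p under 0.05, where 17.9% and 12.9% of all genes were. DKK1, a secreted protein that blocks LRP5 and LRP6, had 9509 in the control against 10621 for line 1 and 11076 for line 2. It lay above the control on both knockdown arrays but was not called (0.16 and 0.22, limma adjusted p = 0.146). ZNRF3, a ubiquitin ligase that removes Frizzled receptors, had 709.4, 836.3 and 827.3 (0.24 and 0.22, adjusted p = 0.0865), whereas its relative RNF43 had 728.1, 737.4 and 732.4 (0.02 and 0.01). NKD1, which binds Dishevelled, lay at -0.19 and -0.14, and NOTUM, the enzyme that strips the lipid from Wnt proteins, at -0.09 and -0.19. The group thus held members on both sides of control, with medians of 0.02 and 0.01.

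Of the target and crypt genes above the filter 0 of 7 rose in limma, where 9.63% of all genes did. In both lines 6 of 7 lay below the control, where 45.7% of all genes did. In limma 0 of 7 fell, against 3.06% of all genes, and 1 was lower at an unadjusted p under 0.05, where 12.9% of all genes were. That gene was ASCL2, a stem cell transcription factor of the crypt, with 732.9 in the control against 636.0 for line 1 and 574.7 for line 2 (-0.20 and -0.35, adjusted p = 0.0840). ASCL2 was called lower with quantile normalization (-0.30, adjusted p = 0.0385) and with no intensity filter (-0.28, adjusted p = 0.0421). SP5, a repressor that is among the most direct Wnt targets and whose window holds CTTTGAT, had 1835, 1779 and 1687 (-0.05 and -0.12). The crypt transcription factor SOX9 had 2275, 2194 and 2014 (-0.05 and -0.18), and its relative SOX4 had 2761, 2489 and 2549 (-0.15 and -0.11). EPHB3, a receptor that positions cells along the crypt, had 268.3, 265.1 and 233.2. The adhesion receptor CD44 had 1390, 1311 and 1162, so that line 2 was further below control than line 1 (-0.08 and -0.26, adjusted p = 0.258). Of its 4 other probe sets above the filter 3 were also below control in both lines. Group medians were -0.05 in line 1 and -0.18 in line 2. PROX1, a transcription factor switched on in colon tumours, was below the filter with 141.2, 181.1 and 148.4.

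Where a member was read by several probe sets, these often differed. Of the 17 members with at least 2 distinct probe sets above the filter, 11 had none that passed limma over probe sets, 6 had some, and in 0 did all pass the same way. The matching shares among all genes with several probe sets were not computed, so whether these counts are particular to the members is not known. Over the 80 distinct member probe sets above the filter, 3 met the size rule upward (3.75%, against 1.41% of all 22670 probe sets) and 0 downward (against 0.110%). In limma 9 rose (11.2%, against 11.3% of all) and 2 fell (2.50%, against 3.92%). These shares in limma were near those of all probe sets.

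**Figure D2:**
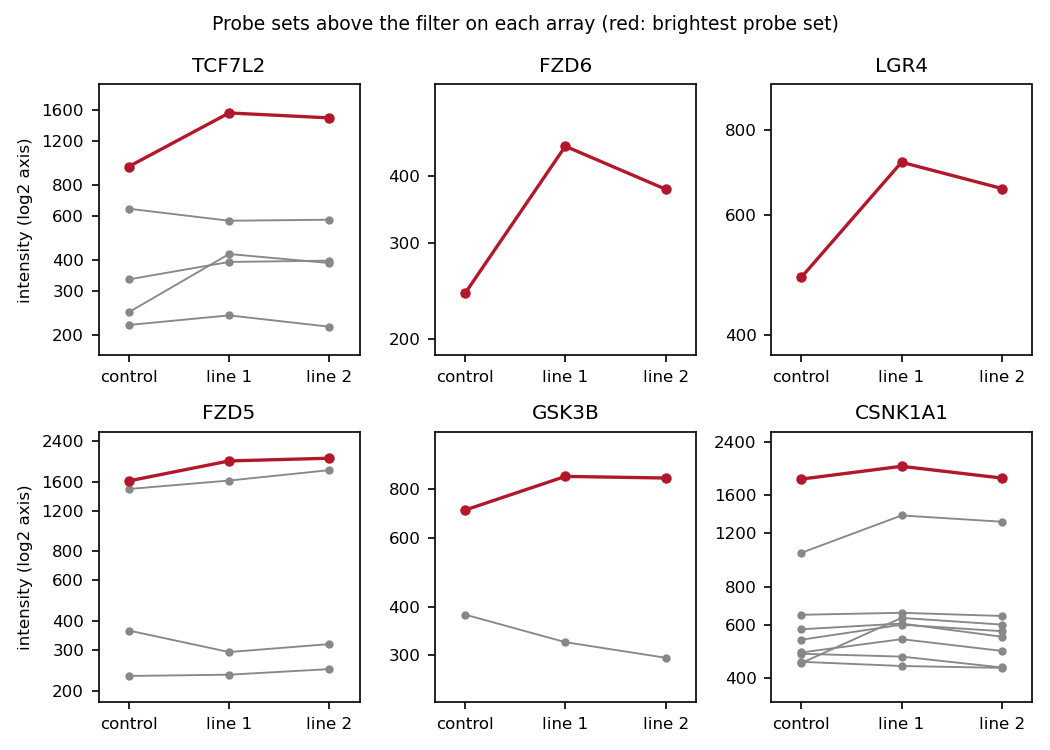
Intensity on a log2 axis for each probe set above the filter of 6 members (lines) on the control, line 1 and line 2 arrays, with the brightest probe set of each gene in red. For TCF7L2 the red probe set and 1 of the 4 others rose by at least 1.5-fold, and for GSK3B the 2 probe sets went opposite ways.

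For TCF7L2, 2 of 5 probe sets above the filter met the size rule. Besides the brightest, a second one read 247.0 in the control against 422.4 for line 1 and 388.6 for line 2, or 1.71-fold and 1.57-fold. The others read 334.3, 392.7 and 397.4 (0.23 and 0.25), 219.6, 239.9 and 216.1 (0.13 and -0.02), and 641.4, 574.1 and 579.5 (-0.16 and -0.15). TCF7L2 is known to be spliced into many forms, and the forms that each probe set reads were not analysed here. With the mean of all its probe sets the gene was not called (0.22, limma adjusted p = 0.0743), nor were LGR4 (0.20, adjusted p = 0.0920) and FZD5 (0.10, adjusted p = 0.346), and FZD6 alone was (0.47, adjusted p = 0.0177). Over the alternative settings that allowed a fit, the limma adjusted p ran from 4.0e-05 to 0.0743 for TCF7L2, 6.9e-05 to 0.0177 for FZD6, 7.6e-04 to 0.0920 for LGR4 and 0.0174 to 0.346 for FZD5.

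In other members, calls differed between the brightest probe set and the rest. GSK3B had a second probe set that fell, with 381.5 in the control against 324.4 for line 1 and 296.0 for line 2, while the brightest rose when tested over probe sets (limma adjusted p = 0.0428 for the rise and 0.0494 for the fall). CSNK1A1 had 9 probe sets above the filter, 2 of which rose. They read 447.6, 631.0 and 599.8 (limma adjusted p = 0.00760) and 1034, 1374 and 1310 (adjusted p = 0.0163), and the remaining 7 lay between -0.05 and 0.17 in line 1 and -0.15 and 0.09 in line 2. SOX4 had 7, of which 1 rose, from 725.5 in the control to 965.2 and 960.4 (limma adjusted p = 0.0101), while 5 of the other 6 were below control in both lines. Probe sets of FZD5 ranged from a mean of -0.25 to 0.31. The FZD4 probe set that gave -0.49 and -0.27 passed limma over probe sets (adjusted p = 0.0383), but its second one above the filter lay at -0.05 and 0.10. The means over both lines of the probe sets of APC, FZD7 and NOTUM lay within 0.03 of each other for each gene, although in line 2 those of APC were at 0.01 and 0.16.

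**Figure D3:**
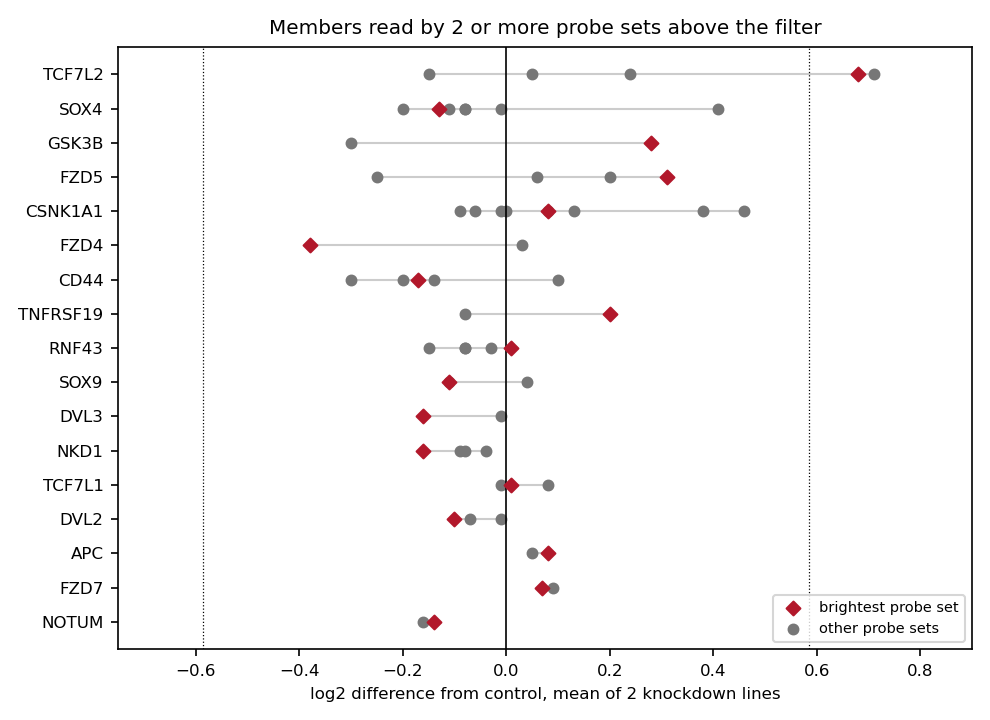
Mean log2 difference of the 2 knockdown lines from control (horizontal axis) for every distinct probe set above the filter of the 17 members with at least 2, ordered by their spread, with the brightest as a red diamond and dotted lines at 1.5-fold. TCF7L2 has the widest spread, from -0.15 to 0.71, and SOX4, GSK3B, FZD5 and CSNK1A1 follow.

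The gap between the 2 knockdown lines was widest in TNFRSF19 and LGR5. TNFRSF19, a Wnt-induced receptor also known as TROY, had 527.5 in the control against 722.1 for line 1 and 506.4 for line 2. Line 1 was thus 1.43-fold above line 2, a gap reached by 0.159% of all genes. LGR5, the stem cell marker of the crypt and a relative of LGR4, had 215.0, 254.0 and 183.4, and lay above control in line 1 and below it in line 2, a 1.38-fold gap that 0.282% of all genes reached. A second TNFRSF19 probe set read 245.5, 255.6 and 211.4, and a dimmer LGR5 probe set below the filter read 132.3, 139.9 and 135.4. The next gaps were those of FZD6 (log2 0.26, higher in line 1), FZD4 (1.16-fold, higher in line 2) and EPHB3 (1.14-fold, higher in line 1). The median gap was log2 0.09 over the members and 0.07 over all genes, and a single array per line allows no test of any gap.

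Beyond the members, 87 further genes of the pathway were examined, of which 84 had a probe set and 49 were above the filter. In limma 4 rose (8.16%) and 1 fell (2.04%), shares near the 9.63% and 3.06% of all genes. By size 1 was higher (2.04%, against 1.36% of all genes) and 0 lower (against 0.159%). RYK, a receptor-like Wnt-binding protein without an active kinase, had 1208 in the control against 2155 for line 1 and 2178 for line 2. Its knockdown arrays were nearly equal and 1.78-fold and 1.80-fold above the control (log2 0.84 ± 0.07 SE, limma adjusted p = 0.00435). RYK had no other probe set above the filter.

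MYC, a transcription factor that drives growth and is itself a Wnt target, had 1069 in the control against 1523 for line 1 and 1556 for line 2 (0.53 ± 0.07 SE, limma adjusted p = 0.00896). The Wnt target CCND1, cyclin D1, lay at -0.08 and -0.04. CTNNB1, which encodes beta-catenin, rose from 1824 to 2637 and 2350 on its brightest probe set (0.45 ± 0.09 SE, limma adjusted p = 0.0243). Its 3 other probe sets above the filter lay between -0.08 and 0.16 in line 1 and -0.20 and -0.01 in line 2, and with the mean of all probe sets CTNNB1 was at 0.04 (limma adjusted p = 0.780, range 0.00223 to 0.780 over the alternatives). TNKS2, a tankyrase that marks AXIN proteins for removal, rose from 991.4 to 1290 and 1378 (0.43 ± 0.08 SE, limma adjusted p = 0.0185). With the mean of all its probe sets TNKS2 was at 0.21 and was not called (adjusted p = 0.0749, range 0.00201 to 0.0749 over the alternatives). Among the ligands WNT5B fell, from 242.4 to 198.8 and 179.4 (-0.36 ± 0.09 SE, limma adjusted p = 0.0422). With the mean of all probe sets per gene WNT5B was not called. Of the 22 ligand genes with a probe set 16 were below the filter. BTRC, the subunit of the ubiquitin ligase that recognises phosphorylated beta-catenin, had 343.9, 416.1 and 421.2 and missed the threshold over genes (adjusted p = 0.0503). The same probe set passed it over probe sets (limma adjusted p = 0.0405). A dimmer BTRC probe set above the filter read 210.9, 203.2 and 191.2, or -0.05 and -0.14 (limma adjusted p = 0.441).

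**Figure D4:**
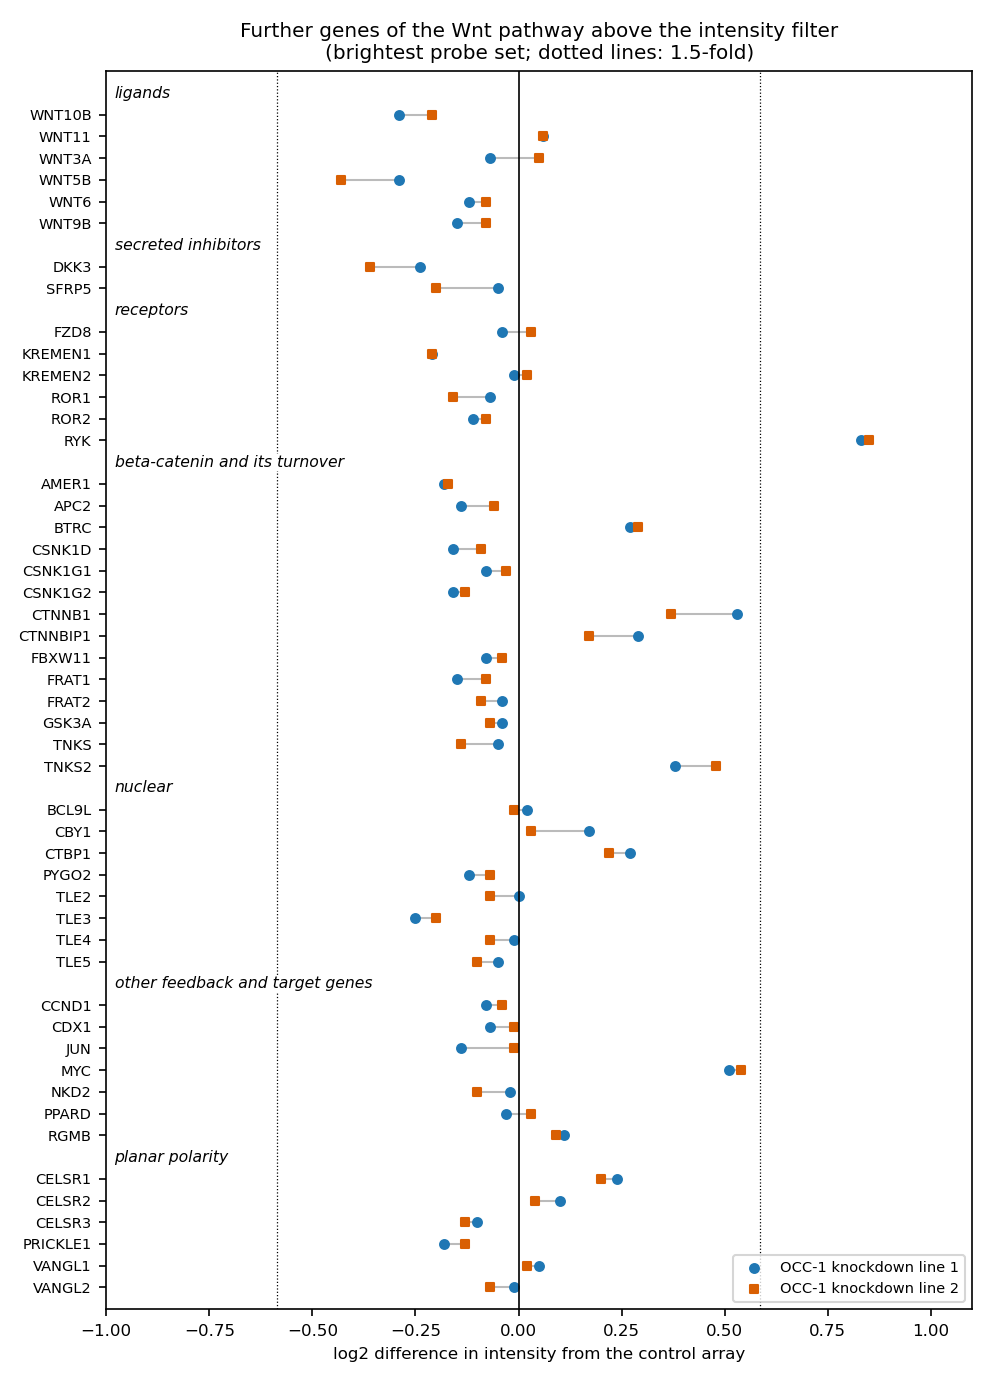
Log2 difference in intensity from the control array (horizontal axis) for the 49 further pathway genes above the filter, by role, with a circle for line 1 and a square for line 2 (1 array each) and dotted lines at 1.5-fold. RYK alone lies beyond 1.5-fold, at 0.83 and 0.85.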

How the data were processed

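Total RNA of 3 Caco-2 lines was measured, 1 array each. Each deposited value is the intensity of a probe set, unlogged, and the submitters' processing notes name RMA without settings. Scaling and background subtraction by the authors were not stated in the sources used here. Background left in the values would make folds smaller. Intensities were converted to log2, with no further normalization. Of 49395 probe sets 44988 had 1 gene symbol, 1832 several and 2473 none, beside 102 array controls (platform annotation, checked by gene identifier against RefSeq tables). The brightest probe set stood for a gene, with the filter given above, leaving 11329 of 18132 genes. Copies with equal values on all arrays were counted once among members (1 for DVL3) and further pathway genes. They were kept in the fit and the counts over all probe sets.

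limma 3.58.1 (R 4.3.3; lmFit, eBayes, two-sided, Benjamini-Hochberg over all genes, or over the 22670 probe sets above the filter) compared 2 knockdown arrays with 1 control (1 residual degree of freedom, 6.96 after moderation). It and the size rule were tested on simulated data. Tables and figures used Python 3.11.15. Alternatives covered the filter, the probe set per gene, normalization, background and leaving out a line. Members and lists were chosen with earlier results of these data known. By rule, values of every array were given for members past the size rule or limma, the brightest of each role, the 5 widest gaps between lines and further pathway genes past either test. Other values named here lie outside that rule, and SP5's window, and the probe sets of GSK3B, CSNK1A1, SOX4 and FZD4, were chosen after their values were seen.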

Additional observations from a re-analysis of the deposited data

How the results depend on the processing

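With the mean of all probe sets, 31 members were above the filter, of which 0 were higher by size and 1 rose in limma. Of the further pathway genes 2 rose and 0 fell. Of the 9481 genes above the filter there, 44 were higher by size, and 660 rose and 316 fell in limma. With the brightest probe set these counts were 154, 1091 and 347 of 11329. With all probe sets tested, 7 members had at least 1 that rose and 2 at least 1 that fell, and 2 further pathway genes had 1 that fell. Without the intensity filter 6 members and 5 further genes rose in limma, 2 members (ASCL2 and FZD4) and 2 further genes fell, and the member medians were 0.05 and 0.01. Of all 18132 genes 1495 rose and 713 fell there, with medians of -0.05 and -0.02. Quantile normalization gave 2 members and 2 further genes that fell, and cyclic loess 1 member and 2 further genes that fell beside 6 members and 5 further genes that rose. Under cyclic loess 1356 of all 11329 genes rose and 471 fell. Under quantile normalization 1143 of all genes rose and 789 fell, against 1091 and 347 on the deposited scale, and 3 members rose and 2 fell, against 4 and 0. At 2-fold, 0 members, 0 member probe sets and 0 further genes were higher. At 1.3-fold 3 members, 6 member probe sets and 3 further genes were. Shares of all genes at either cut-off, or with all probe sets tested, were not computed. Leaving out a knockdown line in turn gave 2 and 2 members higher by size and an OCC-1 difference of -1.62 to -1.24. These member counts could not fall, because the size rule already asks for both lines. With 1 array on each side limma has no residual degrees of freedom, so it was not run there. Among 44 recomputed values of the called genes with a test, 38 kept their direction and side of the threshold and 6 were weaker. The 18 without a test, from leaving out a line, are the differences of the remaining line and kept their direction. Both lines had entered the calls, so this is no separate check. The cause of these changes was not tested. No paired analysis was possible because the groups share only 1 replicate number, the control having 1 array. With 1 control array, its own variation was not measured.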
